A study of Drosophila melanogaster with 4 samples.

Results

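Hemocytes, the blood cells of the Drosophila melanogaster embryo, were sorted by flow cytometry and profiled by RNA sequencing beside the cells of the same stages that were not hemocytes. The embryos were at stages 12 to 16. The study holds 4 such sorted populations with 1 library each, and 2 of the 4 belong to the hemocyte experiment. The other 2 are caudal visceral mesoderm (CVM) cells, the migrating founders of the longitudinal gut muscles, and the cells that were not CVM, from stages 10 to 13. The labels call the hemocyte library migrating and its counterpart a negative control. The genotype, the driver or reporter used for sorting, the number of embryos and the purity of each sort are not given in the sources used here. All members are genes of the deposited hemocyte table, which lists 14794 genes. A gene was kept when the authors gave its test the status OK and its level reached at least 5 FPKM (fragments per kilobase of transcript, scaled to the mapped fragments of the library) in at least 1 of the conditions. This left 7054 genes, of which 3340 carry only a CG or CR number as their name.

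Embryonic hemocytes arise in the head mesoderm and spread through the embryo. Most become plasmatocytes, macrophages that engulf dying cells and deposit basement membrane, the sheet of collagen IV, laminin and other proteins under epithelia and around organs. A smaller class, the crystal cells, stores prophenoloxidases, the enzyme precursors of melanin formation. The GATA factor Serpent (srp) acts early in the whole lineage, and the receptor Pvr, which binds PDGF- and VEGF-like ligands, is needed for hemocyte survival and migration.

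The table calls its conditions q1 and q2 and no sample label uses these names. Condition q1 is the side on which the hemocyte markers are high, so the direction hemocyte against remaining cells rests on those markers and on no label. The level of srp (3R:11811923-11829807, build BDGP5) was 272 FPKM in q1 and 28.6 FPKM in q2. The scavenger receptor gene Sr-CI had 417 FPKM in q1 and 5.33 FPKM in q2. Since srp and Sr-CI set which side is read as hemocytes, their difference is a description and not a result. The other markers lay on the same side: crq, a CD36-like receptor for apoptotic cells, had 420.4 FPKM in q1 and 17.9 FPKM in q2. Pxn, the basement membrane peroxidase Peroxidasin, had 358 FPKM in q1 and 4.39 FPKM in q2. Every marker was thus also measured in q2, far below its level in q1.

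With 1 library per condition there was no replicate check, no spread and no test here, and a size rule stands in for one. Ratios are log2((q1 FPKM + 1)/(q2 FPKM + 1)), which understates the change of genes with low levels, and read depth was not given in the sources used here. Through q1 alone 348 kept genes reached the 5 FPKM minimum, and 712 through q2 alone, so their direction was fixed by the filter. Of the 7054 genes, 853 (12.1%) had a level in q1 at least 2-fold above q2, and 2228 (31.6%) had the reverse. At 4-fold, 370 genes (5.25%) stood higher in q1 and 295 (4.18%) stood higher in q2. That order depended on the pseudocount, since with 0.1 in place of 1 the counts were 412 and 419, and the 295 came to 128 after centring and to 157 without small and structural RNA genes. The median log2 ratio was -0.56, so the middle gene was 1.48-fold higher in q2. Centred on that median, 1420 genes (20.1%) passed 2-fold on the q1 side, as did 915 (13.0%) on the q2 side. The share of 2-fold genes that were higher in q1 was therefore 27.7% as deposited and 60.8% after centring. In the authors' deposited table, 457 kept genes (6.48%) were called significant with the higher level in q1 and 573 (8.12%) with the higher level in q2; these calls compare the reads of 2 libraries and hold no variation between samples. Of the kept genes, 2821 share an annotated locus with another gene, and the split of reads there is uncertain; among genes named below these include gcm, crq, drpr, nimC4, Pxn, Tig, proPO-A1, sn and Hexo2. For crq, the other gene of the locus is ex, with 6.34 FPKM in q1 and 11.7 FPKM in q2, and for nimC4 and proPO-A1 no neighbour exceeded 1.74 FPKM. In sorted bulk RNA, fewer cells of a type and less RNA per cell cannot be told apart.

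**Figure D1:**
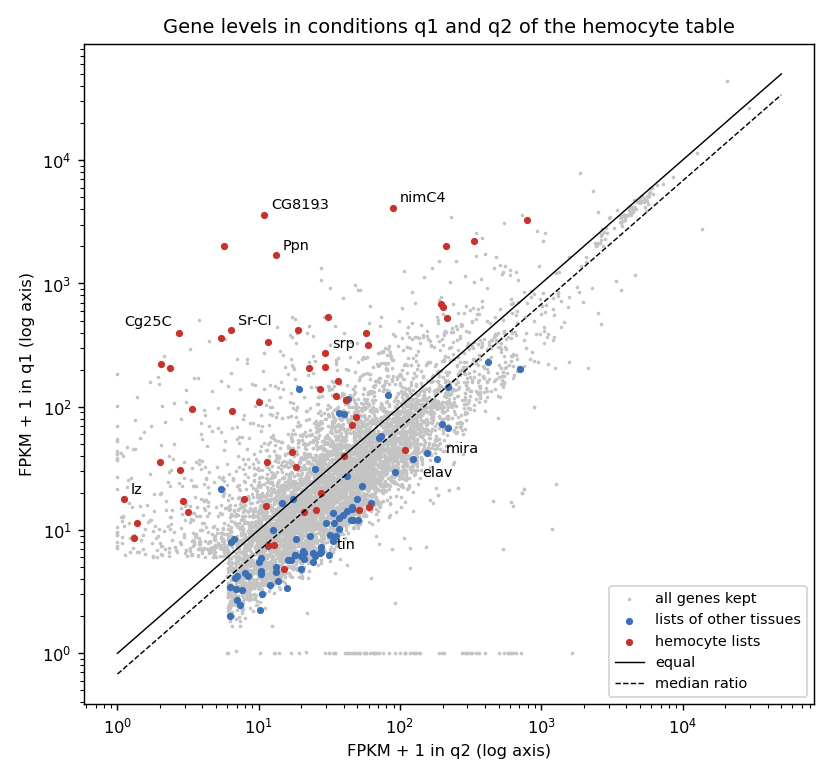
Each point is a gene kept, with its level in q2 on the x axis and in q1 on the y axis, both as FPKM + 1 on log axes; red marks members of the hemocyte lists, blue members of the lists of other tissues, the solid line equal levels and the dashed line the median ratio. Hemocyte genes such as CG8193, Ppn, Cg25C and Sr-CI stand far above the line, genes of other tissues such as tin and elav lie along the cloud's lower edge, and the row at 1 holds genes listed at 0 in q1.

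The hemocyte lists hold 85 genes for lineage factors, crystal cells, the Pvr pathway, engulfment receptors, the Nimrod family, matrix, matrix processing and secreted proteins. Of these, 54 were kept, 40 were at least 2-fold higher in q1, 32 at least 4-fold higher in q1, and 4 at least 2-fold higher in q2. Their median log2 ratio was 2.48, beside -0.56 over all kept genes, of which 12.1% passed 2-fold and 5.25% passed 4-fold on the q1 side. Without srp and Sr-CI, which set the side, 52 were kept, 38 at least 2-fold and 30 at least 4-fold higher in q1 and 4 at least 2-fold higher in q2, with a median of 2.38. Of these 52, 13 passed the 5 FPKM minimum only through q1, so their direction was fixed by the filter. These 13 were gcm2, lz, proPO-A1, PGRP-LC, nimB1, nimB4, nimC3, Cg25C, vkg, Pxn, Glt, Karl and fat-spondin. Of the 31 members that were not kept, 19 lay below 1 FPKM in both conditions, and Chit is listed at 0 with a failed estimate. They include genes known from larval and adult hemocytes: the phagocytosis receptor gene eater was listed at 0.00798 FPKM in q1 and 0 in q2, and nimC1, the P1 antigen gene of larval plasmatocytes, at 0.647 FPKM in q1 and 0 in q2. The clotting factor gene Hml, the usual larval hemocyte marker, had 0.0186 FPKM in q1 and 0.0471 FPKM in q2.

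Among the 7 lineage factors, all kept, 5 passed 2-fold on the q1 side, with 2 at least 2-fold higher in q2. Over all kept genes these shares were 12.1% and 31.6%. The gene ush, whose product binds Serpent as a cofactor, had 122 FPKM in q1 and 34.3 FPKM in q2, a log2 ratio of 1.80. The glial and hemocyte fate factor gene gcm had 112 FPKM in q1 and 40.5 FPKM in q2, a log2 ratio of 1.44. Its paralogue gcm2 was much lower in level, at 16.2 FPKM in q1 and 1.93 FPKM in q2, but had the larger log2 ratio, 2.56. The homeodomain and zinc finger factor gene zfh1 stood at 138 FPKM in q1 and 26.0 FPKM in q2, a log2 ratio of 2.37. Against these, kn, the EBF-type factor that acts in larval lamellocyte formation and in muscle and neuron identity, had 3.84 FPKM in q1 and 14.2 FPKM in q2, a log2 ratio of -1.65. The forkhead factor gene jumu was likewise on the q2 side, with 14.3 FPKM in q1, 59.0 FPKM in q2 and a log2 ratio of -1.97. Beside srp, whose side was given, 4 lineage genes were thus on the q1 side and kn and jumu on the q2 side. Of these, gcm2 passed the 5 FPKM minimum only through q1 and kn only through q2. The direction of gcm2 and kn was thus fixed by the filter.

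Crystal cell genes held the 2 largest ratios of all genes outside small RNAs, those of the prophenoloxidases. The prophenoloxidase gene proPO-A1 was at 2027 FPKM in q1 and 4.67 FPKM in q2, a log2 ratio of 8.48. CG8193, the second prophenoloxidase gene, now called PPO2, was at 3608 FPKM in q1 and 9.90 FPKM in q2, a log2 ratio of 8.37. Each was a few FPKM in q2 and among the most abundant transcripts in q1. The Runx factor gene lz, which specifies crystal cells, had 16.7 FPKM in q1 and 0.110 FPKM in q2. The remaining members were flat or near absent: peb, a zinc finger factor gene used in crystal cells and in many epithelia, had 38.6 FPKM in q1 and 39.3 FPKM in q2. CG42640, the lamellocyte prophenoloxidase gene PPO3, had 0.953 FPKM in q1 and 0.935 FPKM in q2 and was not kept.

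Of the Pvr pathway, the receptor and not the ligands was on the q1 side. Pvr had 204 FPKM in q1 and 21.6 FPKM in q2, a log2 ratio of 3.18. Among its ligands, Pvf3 had 19.1 FPKM in q1 and 26.6 FPKM in q2, a log2 ratio of -0.46. The other ligand genes were below the 5 FPKM minimum: Pvf1 had 2.26 FPKM in q1 and 4.68 FPKM in q2, and Pvf2 had 0.692 FPKM in q1 and 1.38 FPKM in q2.

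Receptors and adaptors of engulfment were mostly on the q1 side. Of the 8 kept genes, of 13 listed, 5 were at least 4-fold higher in q1, beside 5.25% of all kept genes. None was at least 2-fold higher in q2, beside 31.6% of all kept genes. The 5 were crq (log2 ratio 4.48), Sr-CI (6.05), the adaptor gene ced-6, the receptor gene drpr and the peptidoglycan receptor gene PGRP-LC. Among them, Sr-CI set which side is read as hemocytes. PGRP-LC passed the 5 FPKM minimum only through q1, so its direction was fixed by the filter. The level of ced-6 was 210.3 FPKM in q1 and 28.5 FPKM in q2, a log2 ratio of 2.84. Draper, a receptor for dying cells and neuronal debris that signals through Ced-6, had 162 FPKM in q1 and 35.7 FPKM in q2, a log2 ratio of 2.15. PGRP-LC, the membrane receptor of the Imd immune pathway, had 13.0 FPKM in q1 and 2.17 FPKM in q2, a log2 ratio of 2.14. The 3 genes that missed 2-fold were pes at 31.2 FPKM in q1 and 17.4 FPKM in q2, Sr-CII at 6.57 FPKM in q1 and 11.8 FPKM in q2, and Dscam at 13.6 FPKM in q1 and 24.6 FPKM in q2.

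In the Nimrod family, 5 of 11 listed genes were kept and had levels at least 2-fold higher in q1, but nimB1, nimB4 and nimC3 passed the minimum only through q1. These are surface and secreted proteins with a shared type of EGF repeat. The engulfment receptor gene nimC4, also called simu, was among the most abundant transcripts of q1 with 4099.8 FPKM, against 87.9 FPKM in q2, a log2 ratio of 5.53. Its relatives were at far lower levels: nimC3 had 34.5 FPKM in q1 and 0.998 FPKM in q2, a log2 ratio of 4.15. The gene nimB3 had 34.7 FPKM in q1 and 10.5 FPKM in q2, a log2 ratio of 1.63. In nimB4 the level was 10.3 FPKM in q1 and 0.369 FPKM in q2, a log2 ratio of 3.05. The level of nimB1 was 7.64 FPKM in q1 and 0.301 FPKM in q2, a log2 ratio of 2.73. A single receptor gene therefore carried nearly all of the family's measured level.

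**Figure D2:**
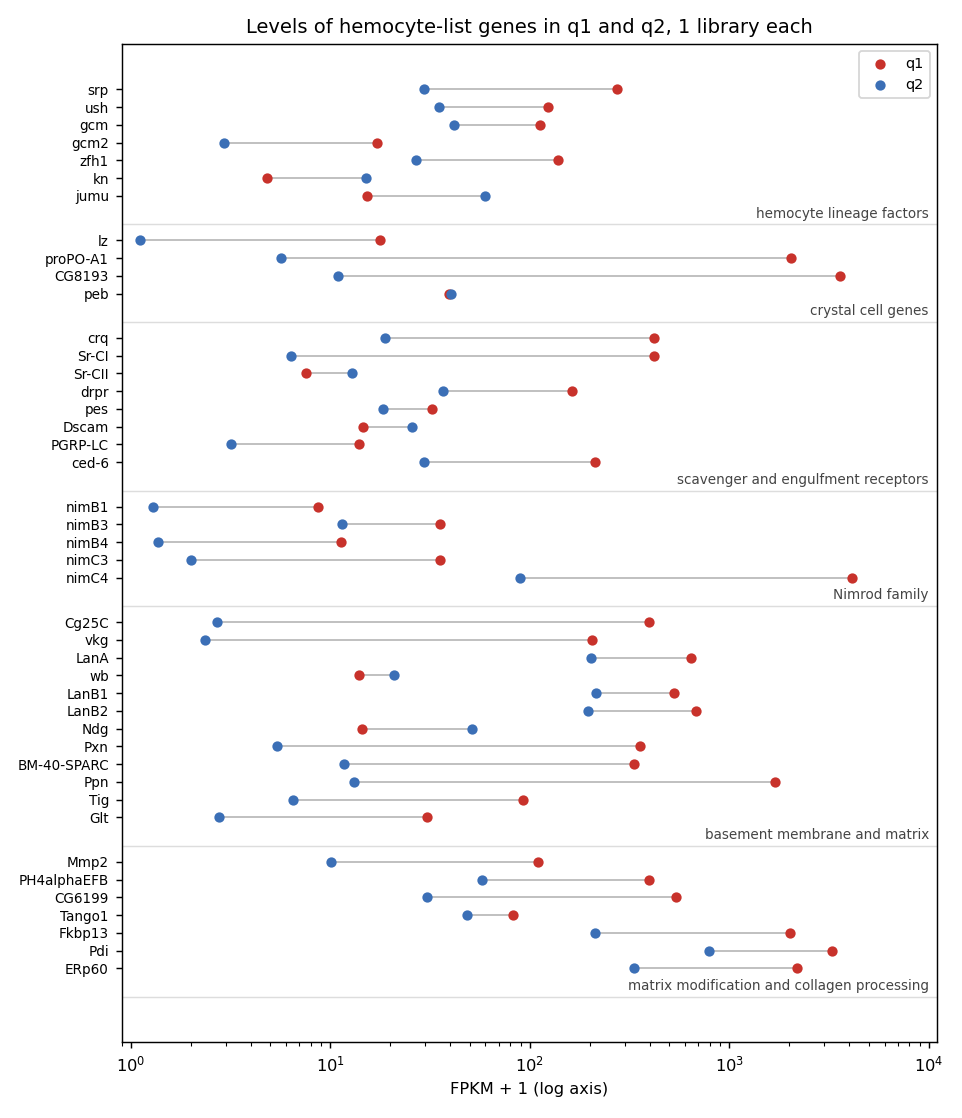
Each row is a kept gene of 6 hemocyte lists, with its level in q1 (red) and in q2 (blue) as FPKM + 1 on a log axis and a grey line joining them; each point is 1 library. Most red points lie to the right of the blue ones, kn, jumu, Sr-CII, Dscam, wb and Ndg have the opposite order, and peb is level.

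Basement membrane genes were mostly on the q1 side. Of 12 kept genes, of 14 listed, 10 were at least 2-fold and 7 at least 4-fold higher in q1. Over all kept genes these shares were 12.1% and 5.25%, and the list's median log2 ratio was 3.64. Cg25C, vkg, Pxn and Glt passed the 5 FPKM minimum only through q1, so their direction was fixed by the filter. The collagen IV chain genes were among the 15 largest ratios on the q1 side. Cg25C, the alpha 1 chain, had 395 FPKM in q1 and 1.72 FPKM in q2, a log2 ratio of 7.18. The alpha 2 chain gene, vkg, had 204 FPKM in q1 and 1.36 FPKM in q2, a log2 ratio of 6.44. The proteoglycan-like matrix gene Ppn (Papilin) was the highest of the list, with 1702 FPKM in q1 and 12.2 FPKM in q2, a log2 ratio of 7.01. Pxn, which crosslinks collagen IV, had a log2 ratio of 6.06. BM-40-SPARC, a collagen-binding glycoprotein, had 334 FPKM in q1 and 10.7 FPKM in q2, a log2 ratio of 4.84. The integrin ligand gene Tig had 91.8 FPKM in q1 and 5.51 FPKM in q2, a log2 ratio of 3.83. The adhesion glycoprotein gene Glt had 29.5 FPKM in q1 and 1.78 FPKM in q2, a log2 ratio of 3.45.

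Laminin genes behaved differently in size, since they were also abundant in q2. LanB2, the gamma chain, had 679 FPKM in q1 and 194 FPKM in q2, a log2 ratio of 1.80. The alpha chain gene LanA had 644 FPKM in q1 and 201 FPKM in q2, a log2 ratio of 1.67. The beta chain gene LanB1 had 527 FPKM in q1 and 215 FPKM in q2, a log2 ratio of 1.29. The chains of this one laminin were thus within a narrow range of level in each condition. The second alpha chain gene, wb, had 12.9 FPKM in q1 and 19.9 FPKM in q2, a log2 ratio of -0.58. Nidogen (Ndg), which links laminin and collagen networks, was the exception of the list with 13.5 FPKM in q1 and 50.1 FPKM in q2, a log2 ratio of -1.82. The perlecan gene trol had 2.29 FPKM in q1 and 0.668 FPKM in q2 and was not kept.

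Genes that fold, modify and cut collagen were on the same side as the chains: 6 of the 7 kept, of 11 listed, passed 4-fold on the q1 side, with none at least 2-fold higher in q2. Over all kept genes these shares were 5.25% and 31.6%. PH4alphaEFB, a collagen prolyl hydroxylase subunit, had 396 FPKM in q1 and 56.6 FPKM in q2, a log2 ratio of 2.79. CG6199, the lysyl hydroxylase Plod, had 538 FPKM in q1 and 29.7 FPKM in q2, a log2 ratio of 4.13. Fkbp13, a peptidyl-prolyl isomerase of the endoplasmic reticulum now called Fkbp14, had 2022 FPKM in q1 and 212 FPKM in q2, a log2 ratio of 3.25. Protein disulfide isomerases were high in both conditions: Pdi had 3278 FPKM in q1 and 789.7 FPKM in q2, a log2 ratio of 2.05. ERp60 had 2192 FPKM in q1 and 334 FPKM in q2, a log2 ratio of 2.71. Mmp2, a matrix metalloproteinase, had 109 FPKM in q1 and 9.06 FPKM in q2, a log2 ratio of 3.45. Tango1, needed for collagen export from the endoplasmic reticulum, differed least, with 81.6 FPKM in q1 and 47.6 FPKM in q2, a log2 ratio of 0.77.

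Other secreted proteins known from hemocytes were mixed: of 9 kept genes, of 20 listed, 5 passed 2-fold on the q1 side, with 1 at least 2-fold higher in q2. Over all kept genes these shares were 12.1% and 31.6%. Karl and fat-spondin passed the 5 FPKM minimum only through q1, so their direction was fixed by the filter. Karl, a lipocalin gene, had 221 FPKM in q1 and 1.02 FPKM in q2, a log2 ratio of 6.78. The gene fat-spondin had 94.8 FPKM in q1 and 2.35 FPKM in q2, a log2 ratio of 4.84. Adgf-A, an adenosine deaminase growth factor gene, had 315 FPKM in q1 and 58.8 FPKM in q2, a log2 ratio of 2.40. Imaginal disc growth factor genes were less far apart: Idgf4 had 42.0 FPKM in q1 and 16.3 FPKM in q2, and Idgf2 had 16.8 FPKM in q1 and 6.81 FPKM in q2. Among the thioester proteins, which tag particles for engulfment or seal epithelia, TepIV had 70.1 FPKM in q1 and 44.6 FPKM in q2. TepII had 14.8 FPKM in q1 and 10.3 FPKM in q2. Mcr, a member of that family with a part in septate junctions, was on the q2 side with 43.3 FPKM in q1 and 107 FPKM in q2, a log2 ratio of -1.28.

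**Figure D3:**
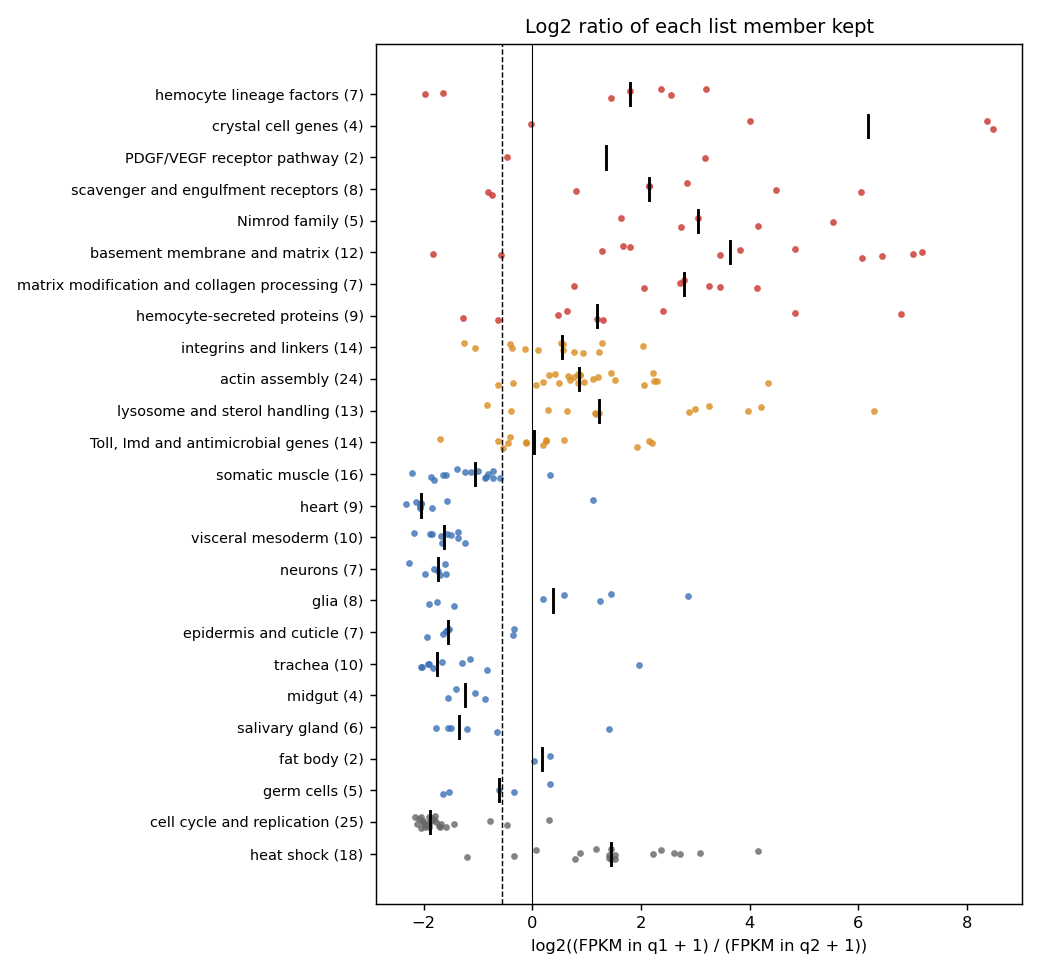
Each dot is a kept member of a gene list, placed by log2((q1 FPKM + 1)/(q2 FPKM + 1)); dots are spread vertically at random within a list, black bars are list medians, the number after each name is how many members were kept, and the dashed line is the median of -0.56 over all kept genes. Lists of hemocyte genes (red) reach up to 8.48, lists of general cell functions (orange) have medians from 0.04 to 1.22, and the cell cycle list (grey) and all lists of other tissues (blue) except glia, fat body and germ cells have medians from -2.04 to -1.06.

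Of 24 kept genes for actin assembly, of 26 listed, 9 passed 2-fold on the q1 side, and none on the q2 side, beside 12.1% and 31.6% of all kept genes, with a median log2 ratio of 0.86. After centring, 18 passed on the q1 side, beside 20.1% of all kept genes. The fascin gene sn, whose product bundles actin filaments, stood out with 967 FPKM in q1 and 47.0 FPKM in q2, a log2 ratio of 4.33. The twinfilin gene twf, for an actin monomer-binding protein, had 146 FPKM in q1 and 30.0 FPKM in q2, a log2 ratio of 2.24. SCAR, an activator of the Arp2/3 complex, had 199 FPKM in q1 and 41.6 FPKM in q2, a log2 ratio of 2.23. The cytoplasmic actin gene Act5C was the fourth highest gene of q1, with 7824 FPKM against 1880 FPKM in q2, a log2 ratio of 2.06. The other cytoplasmic actin gene, Act42A, had 3595 FPKM in q1 and 735 FPKM in q2, a log2 ratio of 2.29. The profilin gene chic had 2680.1 FPKM in q1 and 931 FPKM in q2, a log2 ratio of 1.52. Not all actin regulators were on that side: the cofilin gene tsr had 852 FPKM in q1 and 1321 FPKM in q2, a log2 ratio of -0.63. The level of zip, the non-muscle myosin II heavy chain gene, is listed at 0 in both conditions with a failed estimate.

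Of 14 kept integrin and linker genes, of 16 listed, 3 passed 2-fold on the q1 side and 2 on the q2 side. Over all kept genes the shares were 12.1% and 31.6%, and the list's median log2 ratio was 0.54. After centring, 8 passed on the q1 side and none on the q2 side, beside 20.1% and 13.0% of all kept genes. The alpha PS3 gene scb had 105 FPKM in q1 and 24.8 FPKM in q2, a log2 ratio of 2.04. The alpha PS1 gene mew was opposite, with 17.9 FPKM in q1 and 38.3 FPKM in q2, a log2 ratio of -1.05. The shared beta chain gene mys had 135 FPKM in q1 and 79.3 FPKM in q2, a log2 ratio of 0.76. Among the linkers to actin, CG32528 (parvin) had 104 FPKM in q1 and 41.9 FPKM in q2, a log2 ratio of 1.29. Talin, encoded by rhea, had 56.7 FPKM in q1 and 62.3 FPKM in q2.

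Lysosomal and sterol-handling genes were mostly on the q1 side. Of 13 kept genes, of 23 listed, 9 were at least 2-fold higher in q1, beside 12.1% of all kept genes. None was at least 2-fold higher in q2, beside 31.6% of all kept genes. Hexo2, Npc2h and Gal passed the 5 FPKM minimum only through q1, so their direction was fixed by the filter. Hexo2, a beta-hexosaminidase gene, had 153 FPKM in q1 and 0.980 FPKM in q2, a log2 ratio of 6.29. The cathepsin L gene Cp1 had 2552 FPKM in q1 and 344 FPKM in q2, a log2 ratio of 2.89. Sap-r, the saposin precursor gene, had 1346 FPKM in q1 and 167 FPKM in q2. Of the Niemann-Pick type C2 genes, whose products bind sterols, Npc2g had 377 FPKM in q1 and 23.1 FPKM in q2, a log2 ratio of 3.97. Npc2a had 137 FPKM in q1 and 6.42 FPKM in q2, a log2 ratio of 4.21. Npc2h had 21.6 FPKM in q1 and 1.36 FPKM in q2, a log2 ratio of 3.26. The partner gene Npc1a, which encodes the membrane protein of that sterol route, was much closer to even, with 37.9 FPKM in q1 and 24.1 FPKM in q2.

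Immune signalling genes were near even as deposited, with a median log2 ratio of 0.04 over 14 kept genes of 39 listed. After centring the median was 0.60, and over all kept genes the deposited median was -0.56. At least 2-fold higher in q1 were spz, the Toll ligand gene, at 10.1 FPKM in q1 and 1.39 FPKM in q2, and PGRP-LC. Myd88, the Toll adaptor gene, was also past 2-fold, at 20.1 FPKM in q1 and 4.54 FPKM in q2. Each of these genes passed the 5 FPKM minimum only through q1, so its direction was fixed by the filter. The receptor gene Tl, which also patterns the embryo and acts in muscle, was on the q2 side with 25.3 FPKM in q1 and 84.0 FPKM in q2, a log2 ratio of -1.69. No antimicrobial peptide gene of the list was kept, and the highest level among them was 2.27 FPKM, for Drs in q2.

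Among the genes at least 4-fold higher in q1 with the highest levels were several outside the lists. The gene scf, for a calcium-binding protein of the secretory pathway, had 3435 FPKM in q1 and 228 FPKM in q2, a log2 ratio of 3.91. CaBP1, a protein disulfide isomerase, had 1524 FPKM in q1 and 248 FPKM in q2, a log2 ratio of 2.61. Akap200, an anchor of protein kinase A, had 3077 FPKM in q1 and 543 FPKM in q2. The ferritin chain genes had nearly one ratio: Fer2LCH had 1742 FPKM in q1 and 397 FPKM in q2, a log2 ratio of 2.13. Fer1HCH had 1027 FPKM in q1 and 224 FPKM in q2, a log2 ratio of 2.19, and the ferritin genes share a locus in the annotation. The beta-thymosin gene cib had 1516 FPKM in q1 and 189 FPKM in q2. The beta-tubulin isotype gene betaTub60D had 1669 FPKM in q1 and 345 FPKM in q2, a log2 ratio of 2.27.

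The gene w, the ABC transporter for eye pigment precursors, had 4128 FPKM in q1 and 25.2 FPKM in q2, a log2 ratio of 7.30. It is also carried as a visible marker on many transgenes, and no transgene is named in the labels. In the CVM experiment w had 88.9 FPKM in q1 and 0.478 FPKM in q2. What part a transgene has in these levels was not tested. The nicotinic acetylcholine receptor subunit gene nAcRbeta-21C was also among the largest ratios, with 507 FPKM in q1 and 2.75 FPKM in q2, a log2 ratio of 7.08.

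Genes that carry a CG or CR number in the table were 189 of the 370 genes past 4-fold on the q1 side, or 51.1%, against 47.3% of all kept genes. Some of them have since been named. The largest ratios among them, after CG8193, were those of CG15209 with 389 FPKM in q1 and 1.66 FPKM in q2, and CG8501 with 256 FPKM in q1 and 1.12 FPKM in q2. Their log2 ratios were 7.19 and 6.92. Next came CG15695, at 157 FPKM in q1 and 0.692 FPKM in q2, and CG13315, at 293 FPKM in q1 and 2.25 FPKM in q2. CG6733 and CG17109 are neighbours within one annotated locus: CG6733 had 174 FPKM in q1 and 0.948 FPKM in q2, and CG17109 had 118 FPKM in q1 and 0.378 FPKM in q2. A further gene of that locus, CG6738, had 25.6 FPKM in q1 and 0.257 FPKM in q2. These 3 neighbours, and CG15209, CG8501, CG15695 and CG13315, passed the 5 FPKM minimum only through q1, so their direction was fixed by the filter. The locus also holds CG6726, at 11.7 FPKM in q1 and 1.34 FPKM in q2. Its gene CG17110 had 1.06 FPKM in q1 and 0.0881 FPKM in q2, and CG13830 had 0.222 and 0.259 FPKM.

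By level, the highest numbered genes at least 4-fold higher in q1 after CG8193 were CG6310, CG1637, CG6891 and CG4829. CG6310 had 1339.7 FPKM in q1 and 26.6 FPKM in q2, a log2 ratio of 5.60. CG1637 had 1269 FPKM in q1 and 106 FPKM in q2, a log2 ratio of 3.57. CG6891 had 1133 FPKM in q1 and 148 FPKM in q2, a log2 ratio of 2.93. Their levels are of the order of Ppn and the ferritin genes. CG4829 had 1066 FPKM in q1 and 26.6 FPKM in q2, a log2 ratio of 5.27. CG10157, a lysosomal thiol reductase gene now called GILT2, had 923 FPKM in q1 and 30.8 FPKM in q2, a log2 ratio of 4.86. CG14629 had 878 FPKM in q1 and 49.6 FPKM in q2, a log2 ratio of 4.12. The last of the 10 were CG4164 (shv), CG8602 (mrva) and CG12918, at 697, 650.4 and 632 FPKM in q1 and 126, 60.6 and 103 FPKM in q2.

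Genes of other tissues were lower in q1 but measurable there. Over lists for muscle, heart, gut, salivary gland, visceral mesoderm, nervous system, epidermis, trachea, fat body and germ line, 83 genes were kept. Of these, 57 were at least 2-fold higher in q2, 11 of them at least 4-fold, and 6 were at least 2-fold higher in q1. Over all kept genes the shares were 31.6%, 4.18% and 12.1%. After centring, 39 of the 83 genes were at least 2-fold higher in q2, beside 13.0% of all kept genes. The median log2 ratio was -1.55 as deposited and -0.98 after centring, and the median gene had in q1 32.0% of its q2 level. Of 27 kept defining markers, 24 were higher in q2, and over the 27 the median q1 level was 28.6% of that in q2. The neuronal RNA-binding protein gene elav had 36.5 FPKM in q1 and 123 FPKM in q2, a log2 ratio of -1.73. The muscle factor gene Mef2 had 41.4 FPKM in q1 and 154 FPKM in q2, a log2 ratio of -1.86. The heart factor gene tin had 5.29 FPKM in q1 and 30.5 FPKM in q2, a log2 ratio of -2.33. These markers of different tissues had ratios of similar size. Over the 27, however, the q1 level ranged from 16.1% to 758% of that in q2. The salivary gland gene sage had a log2 ratio of -0.65, the fat body genes Rfabg and Adh 0.04 and 0.33, and the glial gene moody 2.86. The epidermal factor gene grh had 11.1 FPKM in q1 and 45.2 FPKM in q2, a log2 ratio of -1.93. The tracheal FGF receptor gene btl had 5.10 FPKM in q1 and 24.2 FPKM in q2, a log2 ratio of -2.05. The glial factor gene repo had 2.56 FPKM in q1 and 11.0 FPKM in q2, a log2 ratio of -1.75. No defining marker was at 0 in q1 or q2, and the 12 that were not kept, among them brp of synapses and ple of the epidermis, stayed below 5 FPKM in both. Summed over whole lists, neuronal genes came to 112 FPKM in q1 and 442 FPKM in q2, muscle genes to 687 and 1672 FPKM, and tracheal genes to 82.0 and 229 FPKM. The glial sum had the other order, 562 FPKM in q1 and 444 FPKM in q2, as did those of the salivary gland, at 144 and 129.9 FPKM, and the fat body. CrebA alone held 114 FPKM of the salivary gland sum in q1, and the median log2 ratio of that list was -1.36. What part cells of these tissues in the q1 sort have in the ratios was not tested.

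List by list, 10 visceral mesoderm genes and 7 neuronal genes were kept and had levels at least 2-fold higher in q2, with median log2 ratios of -1.62 and -1.73. Of these, 4 and 1 passed the 5 FPKM minimum only through q2, as did 8 of muscle, 3 each of trachea, midgut and salivary gland and 2 of heart. For the heart, 8 of 9 kept genes were at least 2-fold higher in q2, 6 of them at least 4-fold; for the trachea, it was 8 of 10. Somatic muscle was less far apart, with 8 of 16 and a median log2 ratio of -1.06, and its structural genes were low in both conditions: the myosin heavy chain gene Mhc had 2.24 FPKM in q1 and 2.45 FPKM in q2. Epidermis had 5 of 7, salivary gland 4 of 6, midgut 3 of 4 and germ cells 2 of 5 at least 2-fold higher in q2, beside 31.6% of all kept genes. After centring these counts were 3, 1, 0 and 1, beside 13.0% of all kept genes, and those of visceral mesoderm, neurons, heart, trachea and muscle were 6, 7, 8, 6 and 5. Fat body markers were scarce, with 2 of 8 kept and neither past 2-fold. No list median changed its sign on centring.

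The 6 genes of these lists on the q1 side were moody, gcm, loco, pnr, CrebA and Gasp. The glial G protein-coupled receptor gene moody had 138 FPKM in q1 and 18.2 FPKM in q2, a log2 ratio of 2.86. Its signalling partner loco, an RGS protein gene, had 87.3 FPKM in q1 and 36.1 FPKM in q2, a log2 ratio of 1.25. The GATA factor gene pnr had 85.7 FPKM in q1 and 39.2 FPKM in q2, a log2 ratio of 1.11. CrebA, a regulator of secretory capacity genes, had 114 FPKM in q1 and 42.2 FPKM in q2, a log2 ratio of 1.41. The chitin-binding protein gene Gasp had 20.4 FPKM in q1 and 4.45 FPKM in q2, a log2 ratio of 1.97. The glial list therefore held both signs, since repo and the septate junction gene Gli (11.0 FPKM in q1, 43.9 FPKM in q2) were on the q2 side.

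Cell cycle genes lay on the q2 side. Of 25 genes, all kept, 22 were at least 2-fold higher in q2, 7 of them at least 4-fold, and none was at least 2-fold higher in q1. Over all kept genes the shares were 31.6%, 4.18% and 12.1%. The list's median log2 ratio was -1.88. After centring, 21 were at least 2-fold higher in q2, beside 13.0% of all kept genes. CycA had 120.2 FPKM in q1 and 489.6 FPKM in q2, a log2 ratio of -2.02. The PCNA gene mus209 had 93.9 FPKM in q1 and 331 FPKM in q2, a log2 ratio of -1.81. The replicative helicase subunit gene Mcm2 had 16.0 FPKM in q1 and 69.3 FPKM in q2, a log2 ratio of -2.04. The one gene with the higher level in q1 was stg, the Cdc25 phosphatase gene, at 128 FPKM in q1 and 103 FPKM in q2. Further replication genes were among the most abundant at least 4-fold higher in q2: geminin, the licensing inhibitor, had 118 FPKM in q1 and 506 FPKM in q2, and the topoisomerase gene Top2 had 47.1 FPKM in q1 and 209.8 FPKM in q2. Thymidylate synthase, Ts, had the lowest ratio of the table outside small RNA genes, with 0.0160 FPKM in q1 and 20.6 FPKM in q2, a log2 ratio of -4.41; it lies within the annotated locus of Rbp9, which had 2.59 FPKM in q1 and 0.793 FPKM in q2.

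Stress genes were mostly on the q1 side. Of 18 kept heat shock and chaperone genes, of 19 listed, 13 were at least 2-fold and 6 at least 4-fold higher in q1. Over all kept genes the shares were 12.1% and 5.25%. The small heat shock protein gene Hsp26 had 261 FPKM in q1 and 13.8 FPKM in q2, a log2 ratio of 4.15. Hsp23 had 328 FPKM in q1 and 49.0 FPKM in q2, a log2 ratio of 2.72. The BiP gene Hsc70-3, the chaperone of the endoplasmic reticulum, had 2316 FPKM in q1 and 378 FPKM in q2, a log2 ratio of 2.61. The 13 include Hsp70Aa, Hsp70Ab, Hsp70Ba, Hsp70Bb, Hsp70Bbb and Hsp70Bc, with log2 ratios from 1.42 to 1.53. These Hsp70 genes are near-identical copies and the split of reads among them is uncertain, yet each was counted. Hsp22 and Hsp67Bb, also counted, share a locus, and Hsp67Bb passed the 5 FPKM minimum only through q1. Hsp83 was even, at 235 FPKM in q1 and 224 FPKM in q2, and the mitochondrial chaperone gene Hsp60 was opposite, with 92.3 FPKM in q1 and 215 FPKM in q2. What part handling before or during the sort has in these levels was not tested.

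As deposited, the q2 side was broad but shallow, and its breadth depended on the scaling. Outside 274 genes of small and structural RNAs, 6780 genes were left, with log2 ratios from -4.41 to 8.48. Past 2-fold were 825 genes on the q1 side and 2039 on the q2 side, but 1381 and 760 after centring. Of the 6780 genes, 171 passed 8-fold on the q1 side, with 5 at least 8-fold higher in q2, and 40 and 0 at least 32-fold. After centring, 256 and 3 passed 8-fold. In the deposited ratios, a band of 855 genes, or 12.6%, lay between -2.5 and -1.5. Between 1.5 and 2.5 there were 275 genes, or 4.06%. Among the genes of largest ratio on the q2 side was Him, which holds muscle and heart precursors back from differentiation, at 34.9 FPKM in q1 and 241 FPKM in q2, a log2 ratio of -2.75. CG12011 was both abundant and far on that side, with 230.1 FPKM in q1 and 1566 FPKM in q2, a log2 ratio of -2.76. CG5399 had 4.22 FPKM in q1 and 41.4 FPKM in q2, a log2 ratio of -3.02, and CG18088 had 3.46 FPKM in q1 and 33.8 FPKM in q2, a log2 ratio of -2.96. The highest level among genes at least 4-fold higher in q2 was that of the odorant-binding protein gene Obp99a, with 877 FPKM in q1 and 3643 FPKM in q2, a log2 ratio of -2.05. CG13333, now called link, had 92.2 FPKM in q1 and 396 FPKM in q2, a log2 ratio of -2.09. The second highest was the chromatin protein gene Df31, with 572 FPKM in q1 and 2504 FPKM in q2, a log2 ratio of -2.13.

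**Figure D4:**
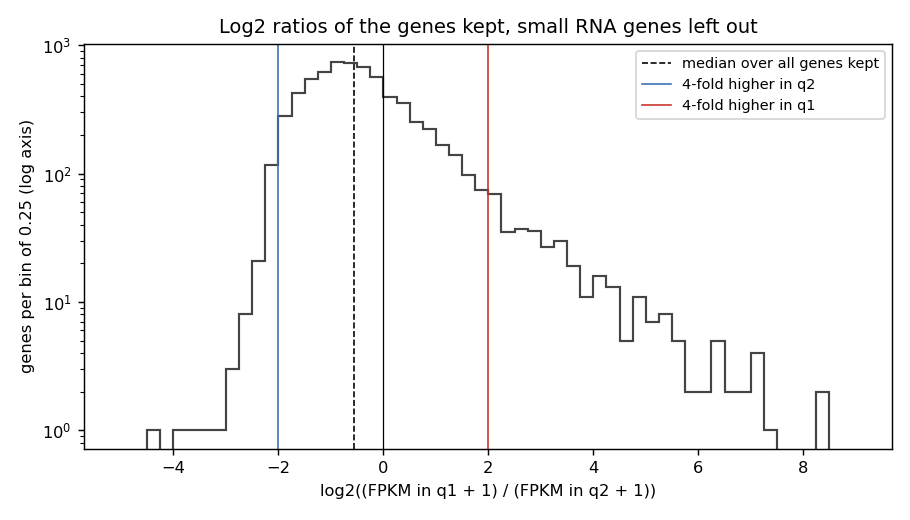
The line gives the number of kept genes, small and structural RNA genes left out, in bins of 0.25 of log2((q1 FPKM + 1)/(q2 FPKM + 1)), with the count on a log axis; vertical lines mark 0, the median over all kept genes and 4-fold in each direction. The q2 side ends steeply near -2.5, and the q1 side has a long tail up to 8.48.

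Small and structural RNAs (tRNA, snoRNA, snRNA, ribosomal and signal recognition particle RNA genes) held the largest ratios on the q2 side. On the q1 side the prophenoloxidase genes led, and the first small RNA was tRNA:CR30239, with a log2 ratio of 7.54. Of the 274 kept, 138 were at least 4-fold higher in q2 and 21 at least 4-fold higher in q1. Over all kept genes these shares were 4.18% and 5.25%. At 0 in q1 were 75 of the 274 small and structural RNAs, and 19 were at 0 in q2. They filled all 15 places of the largest ratios on the q2 side when every kept gene was ranked. Most of them, 247, share a locus with another gene. The highest such level against 0 was that of snoRNA:Or-CD10, listed at 0 in q1 and at 1659.7 FPKM in q2. The signal recognition particle RNA gene CR42652 had 20.6 FPKM in q1 and 754 FPKM in q2. The highest level of the whole table was that of the mitochondrial large ribosomal RNA, mt:lrRNA, with 44049.7 FPKM in q1 and 20673 FPKM in q2. Next came ribosomal protein genes such as RpL41, at 26250 FPKM in q1 and 29746 FPKM in q2. Of ribosomal protein genes, 83 were kept, none past 2-fold, and their median log2 ratio was -0.15 as deposited but 0.41 after centring, so their direction depends on the scaling.

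Shares also varied with level. Among the 726 genes that reached at least 200 FPKM in a condition, 25.8% passed 2-fold on the q1 side and 30.7% on the q2 side. From 50 to 200 FPKM the shares were 14.1% and 35.4%, from 10 to 50 FPKM they were 8.37% and 30.1%, and from 5 to 10 FPKM they were 10.4% and 28.6%. The difference between level classes was not tested. The 15 highest genes held 17.7% of the summed FPKM in q1 and 15.5% in q2.

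In the CVM experiment, whose table was normalised separately and shares no library, 787 of 7167 kept genes (11.0%) passed 2-fold on its q1 side, as did 273 (3.81%) on its q2 side, and its median log2 ratio was -0.07. Which CVM population its q1 is, the labels do not give. The visceral mesoderm gene HLH54F had 961 FPKM in its q1 and 14.6 FPKM in its q2. Of 10 visceral mesoderm genes kept in both experiments, 5 were at least 2-fold higher in its q1 and none in its q2. A reading of its q1 as the CVM side rests on such genes and on no label. Of the 370 genes past 4-fold on the q1 side of the hemocyte table, 267 were kept there, 120 of them at least 2-fold higher in its q1 and 12 in its q2. These 120 are 44.9% of the 267 and 15.2% of the 787. The hemocyte markers were lower in q1 and higher in q2 there than in the hemocyte table: srp had 78.8 FPKM in q1 and 43.5 FPKM in q2, and crq had 71.0 FPKM in q1 and 35.3 FPKM in q2. The prophenoloxidase gene CG8193 had the other order, with 17.2 FPKM in q1 and 32.0 FPKM in q2. Of the genes at least 4-fold higher in q2 of the hemocyte table, 231 were kept in the CVM table, 67 at least 2-fold higher in its q2 and 32 in its q1. These 67 are 29.0% of the 231 and 24.5% of the 273. The difference between the experiments was not tested, and stage and sorted cell type differ together, so their parts cannot be told apart.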

How the data were processed

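Per the submitters' processing notes, the reads were handled with Bowtie 0.12.7, TopHat 1.3.3, Cufflinks 1.3.0 and Cuffdiff, with BDGP5 as genome build. The strand setting, the annotation release and the depth are not given in the sources used here. Per the file headers, the deposited gene tables hold an FPKM value for each of the conditions q1 and q2, 1 library each; exact zeros can be failed estimates. The q-value column of the authors holds some values above 1 and was treated as a score; only their yes or no call at a threshold of 0.05 was used.

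Ratios were recomputed as log2((q1 FPKM + 1)/(q2 FPKM + 1)) for genes of status OK with at least 5 FPKM in 1 condition, with Python 3.11.15, numpy 2.4.6, pandas 2.3.3 and matplotlib 3.10.9, and were also centred on their median; the script was tested on simulated levels. The summed FPKM over all genes was 871897 in q1 and 955679 in q2. The 25 lists hold 362 member entries, all matched by symbol; some genes are not reported here. The members and lists were chosen with earlier results of these data known. Genes named are the 4 markers, members of the lists, the 15 largest ratios per direction, the 15 highest levels per condition and the 10 highest numbered genes at least 4-fold apart per direction; the same rankings without small and structural RNA genes, and Npc1a, rhea and CG6738, were chosen after the data were seen. Current symbols were found for 6481 kept genes. Alternatives were the centring, other pseudocounts and minimum levels, every status, genes with a locus of their own and genes other than small and structural RNAs.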

Additional observations from a re-analysis of the deposited data

How the results depend on the processing

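Of the 7054 kept genes, 853 were at least 2-fold and 370 at least 4-fold higher in q1, and 2228 and 295 in q2. Centring on the median gave 1420 and 580 genes for q1 and 915 and 128 for q2. With a pseudocount of 5, 158 genes were at least 4-fold higher in q2. Over the 4233 genes with a locus of their own, which are fewer genes, the counts were 560 and 239 for q1 and 1261 and 127 for q2. Without small and structural RNA genes, an alternative chosen after seeing the data, 157 were at least 4-fold higher in q2. Every other count under the pseudocounts, minimum levels and statuses tried stayed within 1.5 times. Of the 208 named entries, 146 were past 2-fold. Centring took 3 of them below it and 20 others past it, and a pseudocount of 5 took 2 below. None of the 146 changed direction, but none could have done so. The centring shift was smaller than a 2-fold change, and the other alternatives leave the sign of a ratio as it is. Centring changed the sign of 29 of 331 kept list members and ranked genes, such as RpL41, Pvf3, rhea and peb, all with a deposited log2 ratio between -0.56 and 0. No replicate could be left out, since each condition has 1 library. No paired analysis was possible because each group has 1 library and no test was run. Depth is unknown, so counting error could not be given. Of the kept genes, 2821 share a locus with another gene, including crq, Pxn, nimC4, proPO-A1, sn and Hexo2, and how reads were divided there was not tested.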

Other observations

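A few further genes on the q1 side, of metabolism and redox reactions, were picked after their values were seen and stand for no group. The malic enzyme gene Men had 352 FPKM in q1 and 4.78 FPKM in q2, a log2 ratio of 5.93. Pepck, the gene of the first committed step of gluconeogenesis, had 887 FPKM in q1 and 51.5 FPKM in q2, a log2 ratio of 4.08. The ceramidase gene CDase had 271 FPKM in q1 and 9.85 FPKM in q2, a log2 ratio of 4.65. PHGPx, a glutathione peroxidase gene, had 512 FPKM in q1 and 17.2 FPKM in q2, a log2 ratio of 4.82. The peroxiredoxin genes Prx2540-1 and Prx2540-2 had 452 and 399 FPKM in q1 and 21.7 and 17.8 FPKM in q2; they are similar neighbours, so the split of reads between them is uncertain. The insulin-like peptide gene Ilp4 had 845 FPKM in q1 and 121 FPKM in q2, a log2 ratio of 2.80.

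The lysosomal thiol reductase genes differed in direction. CG13822, now GILT3, had 533 FPKM in q1 and 27.8 FPKM in q2, a log2 ratio of 4.21, near that of its neighbour CG10157. CG9796, now GILT1, had 60.6 FPKM in q1 and 153 FPKM in q2, a log2 ratio of -1.32.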
